A study of Mus musculus with 2 samples.

Results

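Gdf10 fibroblasts were taken here as synovial fibroblasts with at least 2 unique molecular identifiers (UMIs, each counted as 1 captured transcript) of Gdf10, and are called members. They numbered 848 of 10946 cells that passed the quality limits, 688 of 7075 in the control library and 160 of 3871 in the MMS library. Quality limits were 1000 UMIs and 500 genes as the minimum per barcode, with mitochondrial transcripts at no more than 10%. A cell entered the fibroblast gate when Col1a1, Col1a2 and Col3a1 made up at least 0.5% of its UMIs, Prg4 less than 1%, and Ptprc, Pecam1 and Cdh5 at most 1 UMI together. The gate held 2854 control and 1126 MMS cells, and members had at least 2 Gdf10 UMIs and no UMI of Sult1e1. The reference for them was the 1482 control and 883 MMS cells of the same gate with no UMI of Gdf10 or Sult1e1, called other fibroblasts below. The choice of cells rests on measured counts of Gdf10, so the levels of Gdf10 are given as a description.

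Synovium, the soft tissue that lines the joint, had been dissected from the knees of wild-type mice and digested to single cells. One library came from control mice and the other from mice labelled MMS, with the further label D14; the labels do not spell out either term. Each library pooled 20 knees, so animals cannot be told apart within it, and each group had 1 library. No difference below therefore has a replicate error or a p-value, and the 95% intervals cover counting error only. The labels name goblet cells as the cell type, whereas the cells described here carried fibroblast collagens.

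Gdf10, also known as Bmp3b, encodes a secreted protein of the TGF-beta superfamily, a family of ligands that signal through paired serine/threonine kinase receptors and Smad proteins. Sfrp2 encodes a secreted modulator of Wnt signalling, Inmt a methyltransferase that acts on indole amines, and Eln elastin, the core protein of elastic fibres. Fibroblasts beneath the synovial lining make most of the collagen and elastic matrix of the tissue and lie around its vessels. By GENCODE coordinates on GRCm38, Gdf10 lies on chromosome 14 at 33923587 to 33937983, Sfrp2 on chromosome 3 at 83766321 to 83774316, Inmt on chromosome 6 at 55170626 to 55175043 and Eln on chromosome 5 at 134702593 to 134747323, each a protein-coding gene.

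In all, 84900876 UMIs were counted in control, from 8810 barcodes, and 85597195 in MMS, from 5286. Members had a median of 13849 UMIs and 3712 genes in control and 19742 UMIs and 4706 genes in MMS, against 12997 and 25143 UMIs in the other fibroblasts. MMS members were therefore deeper than control members but shallower than the MMS cells they were compared with. Their totals ran from 1045 to 68197 UMIs in control and from 1265 to 64746 in MMS. The libraries shared 6 barcodes; 2 members carried one of these, and no barcode was a member in both. A doublet caller marked 8 control members and 1 MMS member.

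Gdf10 was thinly counted in most members. Control members had a median of 3 and a maximum of 41 Gdf10 UMIs, and MMS members a median of 4 and a maximum of 92. Cells just inside the limit, with 2 UMIs, numbered 221 in control and 45 in MMS, and cells just outside it, with 1 UMI and no Sult1e1, numbered 386 and 78. At the upper end, 80 control and 32 MMS members had 10 or more, which was 11.6% and 20% of members but 36.4% and 58.3% of their Gdf10 UMIs. Over all members Gdf10 stood at 354 counts per 1000000 UMIs (CPM) in control and 355 in MMS. Among control gate cells with Sult1e1 UMIs, which the definition leaves out, 110 of 298 also had 2 or more Gdf10 UMIs; in MMS this was 0 of 5.

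**Figure D1:**
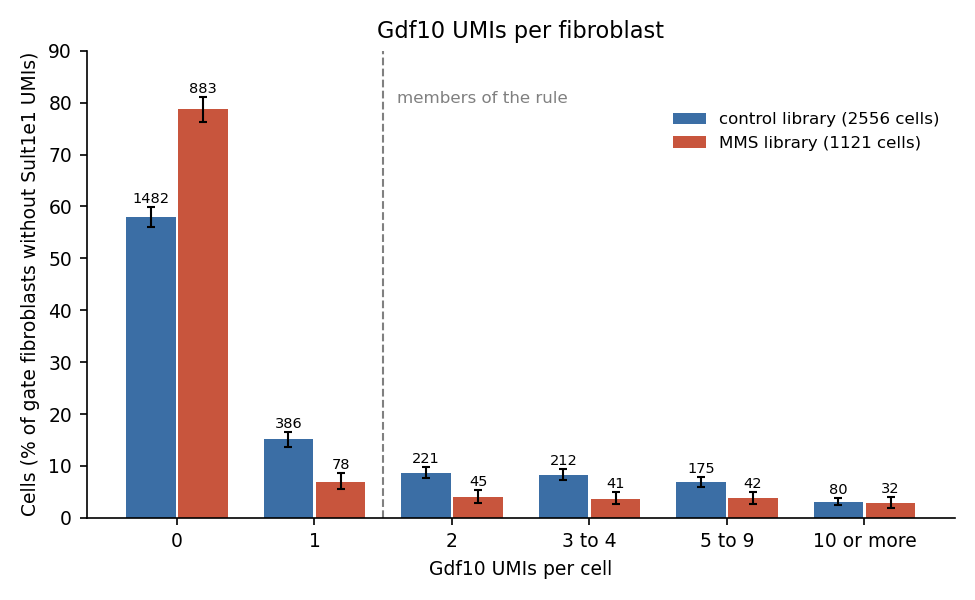
Share of gate fibroblasts without Sult1e1 UMIs (vertical axis, %) by the number of Gdf10 UMIs per cell (horizontal axis), in the control and MMS libraries, with exact 95% binomial intervals. Cells with 2 UMIs made up 8.65% in control and 4.01% in MMS, whereas cells with 10 or more made up 3.13% and 2.85%.

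In cells chosen by Pecam1 and Cdh5 or by Ptprc, 2 or more Gdf10 UMIs were rare. The first were chosen by Pecam1 and Cdh5 at 3 or more UMIs and low collagen. Of them 0 of 1971 control cells (exact upper bound 0.187%) and 1 of 806 MMS cells (0.124%) had such counts. Their median depths were 3906 and 8403 UMIs. The second had Ptprc, the pan-leukocyte gene, at 2 or more UMIs and low collagen. There the counts were 2 of 1173 (0.171%) and 0 of 847 (exact upper bound 0.435%), at 13913 and 15143 UMIs. The gate fibroblasts stood at 28% and 14.2%, at median depths of 13310 and 23842 UMIs. Depth thus differed between the cells compared, and the part of free RNA in the Gdf10 counts was not tested. Cells with Prg4 at 1% or more of their UMIs had 13.8% in control and 2.7% in MMS, so Gdf10 was also present in cells that the Prg4 limit kept out.

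Members made up 24.1% (22.5 to 25.7, exact binomial interval) of control gate fibroblasts and 14.2% (12.2 to 16.4) of MMS ones. Of all kept cells they were 9.72% (9.04 to 10.4) and 4.13% (3.53 to 4.81). With every cell thinned to 5000 UMIs, so that depth was equal, 10.6% (9.52 to 11.9) of control and 5.41% (4.11 to 6.96) of MMS gate fibroblasts qualified; this kept 5253 of 7075 and 3318 of 3871 cells. The share was thus lower in the MMS library at either depth. At the top of the range the libraries lay close together: 2.8% (2.23 to 3.48) of control and 2.84% (1.95 to 3.99) of MMS gate fibroblasts were members with 10 or more Gdf10 UMIs. After thinning and with no Sult1e1 limit, 10 or more UMIs remained in 0.62% (0.361 to 0.99) and 0.965% (0.464 to 1.77). On the same basis 1 or more were found in 28.1% (26.5 to 29.9) and 10.4% (8.63 to 12.4). These thinned shares include gate cells with Sult1e1 UMIs, which were 298 in control and 5 in MMS before thinning. The collagen and Prg4 limits also set all the shares given here, and the Sult1e1 limit those of members.

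The label markers went together in only some of the members. All of Sfrp2, Inmt and Eln were detected in 34 of 688 control members (4.94%) and 5 of 160 MMS members (3.12%), and none of them in 192 (27.9%) and 31 (19.4%). Among the other fibroblasts, all 3 were detected in 8 of 1482 control cells (0.54%) and 2 of 883 MMS cells (0.227%). None was detected in 54.9% of control and 61.2% of MMS cells there. Sfrp2 stood at 229 CPM in control members against 124 in other fibroblasts, a log2 ratio of 0.89, and at 409 against 80.2 CPM in MMS, a log2 ratio of 2.35. Inmt stood at 134 against 65.9 CPM in control (1.02) and at 29 against 1.74 CPM in MMS (4.06), and 22.8% of its UMIs in MMS members came from 1 cell. Eln stood at 95.7 against 35.7 CPM in control (1.42) and at 488 against 89.6 CPM in MMS (2.45). The 3 markers were therefore higher in the members of both libraries, while a full marker set in a single cell was uncommon at this depth. Eln was not limited to fibroblasts: its level was 82.9 CPM in control and 253 CPM in MMS cells chosen by Pecam1 and Cdh5.

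Sfrp2, Inmt and Eln were each highest in the cells with 10 or more Gdf10 UMIs, but not all of them followed the Gdf10 count steadily below that. In control, Eln stood at 35.7 CPM in cells with no Gdf10 UMI, at 44.2 with 2 and at 354 with 10 or more; in MMS these levels were 89.6, 341 and 889. Sfrp2 stood at 124, 69.3 and 812 CPM in control and at 80.2, 110 and 925 in MMS. Inmt stood at 65.9, 93.8 and 402 CPM in control, and in MMS at 1.74, 46 and 47.9. The steps between were uneven in MMS: Sfrp2 stood at 347 CPM with 1 Gdf10 UMI, above its level with 2, Eln at 213 with 3 to 4, below its level with 2, and Inmt at 5.37 with 5 to 9. The complement gene C2 was higher at each step in both libraries, with 4.06, 8.89 and 118 CPM in control and 10.4, 28.8 and 235 in MMS. Pi16, a marker of adventitial fibroblasts, was lowest at the upper end, with 653, 561 and 34.9 CPM in control and 250, 213 and 34.4 in MMS. Median depth was similar along this series in control, 12997 UMIs at 0, 13578 at 2 and 12159 at 10 or more, and ran from 25143 to 19504 and 22724 in MMS.

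**Figure D2:**
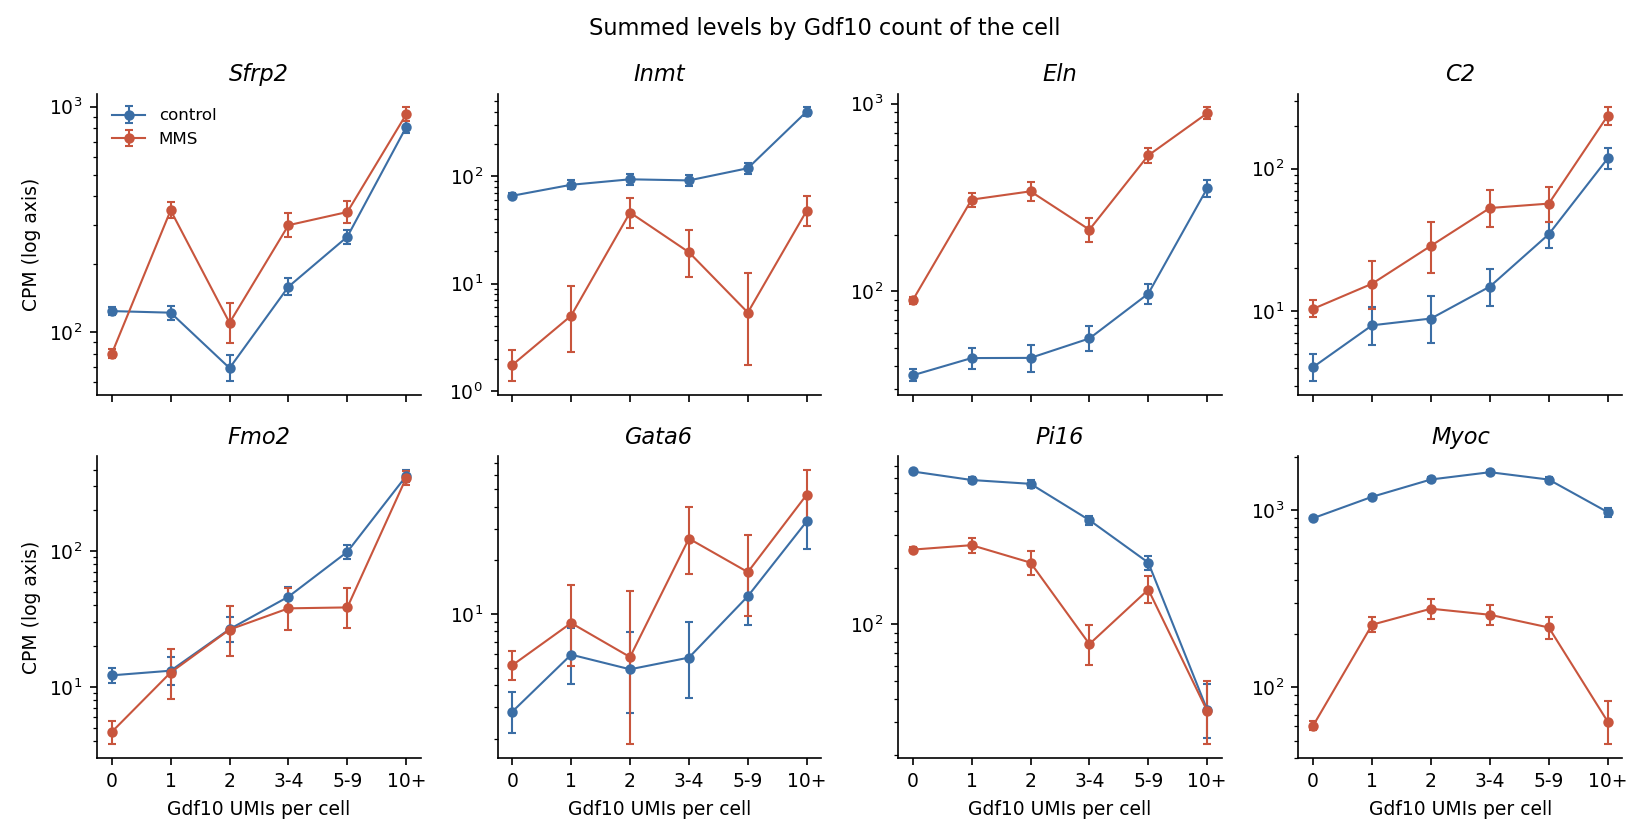
Summed level of 8 genes (vertical axis, CPM, log scale) against the Gdf10 UMIs of the cell (horizontal axis) in gate fibroblasts without Sult1e1 UMIs, with 95% counting intervals. Eln, C2 and Fmo2 reached their highest level at 10 or more Gdf10 UMIs in both libraries (Fmo2 359 CPM in control, 348 in MMS), where Pi16 had its lowest.

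The difference between the ends of the range was also seen with each cell thinned to 5000 UMIs. Fmo2, a flavin-containing monooxygenase that oxidises small molecules, was then detected in 4.72% (3.66 to 5.98) of control cells with no Gdf10 UMI, in 9.57% (5.94 to 14.4) of those with 2 and in 61.5% (49.8 to 72.3) of those with 10 or more. In MMS these shares were 2.54% (1.56 to 3.9), 10.3% (2.87 to 24.2) and 43.8% (26.4 to 62.3). Gata6, a zinc-finger transcription factor, was detected in 1.53%, 1.91% and 19.2% of control cells and in 2.67%, 5.13% and 25% of MMS cells. Inmt was detected in 17%, 23.4% and 47.4% of control but in 1.02%, 12.8% and 12.5% of MMS cells. The members just above the limit thus lay nearer to cells without Gdf10 than to the Gdf10-rich members in their shares of Fmo2 and Gata6.

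To see where the members lay, all gate fibroblasts were clustered without any gene of the definition, which gave 12 clusters. Cluster 0 is described further because it had the largest share of members. They were 91 of its 113 control cells and 37 of its 43 MMS cells, 80.5% and 86%. Its leading genes included Fmo2, Epha3, C2, Tnfsf13b, Gdf10, Phex, F3, Eln and Abcc9. The cluster was picked by its share of members, so Gdf10 among these genes follows from that choice. This cluster took 13.2% of the control and 23.1% of the MMS members, and 26.2% and 42.1% of their Gdf10 UMIs. Its members had a median of 7 Gdf10 UMIs in either library, against 3 in control and 4 in MMS outside it, and were shallow, with median totals of 7539 and 6433 UMIs against 14517 and 23263. The other members were spread. In control 208 lay in cluster 2 (leading genes Cysltr1, Lepr and Igfbp3), 130 in cluster 3 (Tek, Stmn4 and Slc6a12), 111 in cluster 1 (Ccl11, Heyl and Hsd11b1) and 107 in cluster 5 (Serpina3m and Cx3cl1). In MMS 66 lay in cluster 8 (Mmp13, Mmp11 and Plekhg4) and 40 in cluster 6 (Col6a5, Saa1 and Hsd11b2). Clusters 6, 7 and 8 came mostly from the MMS library and clusters 1 to 5 from control, so library and cluster cannot be told apart for them, whereas cluster 0 drew cells from each. Clusters 9 and 10, led by vessel mural genes such as Higd1b and Rgs5 and by genes such as Reln and Foxd3, held 1 member and 0 members.

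**Figure D3:**
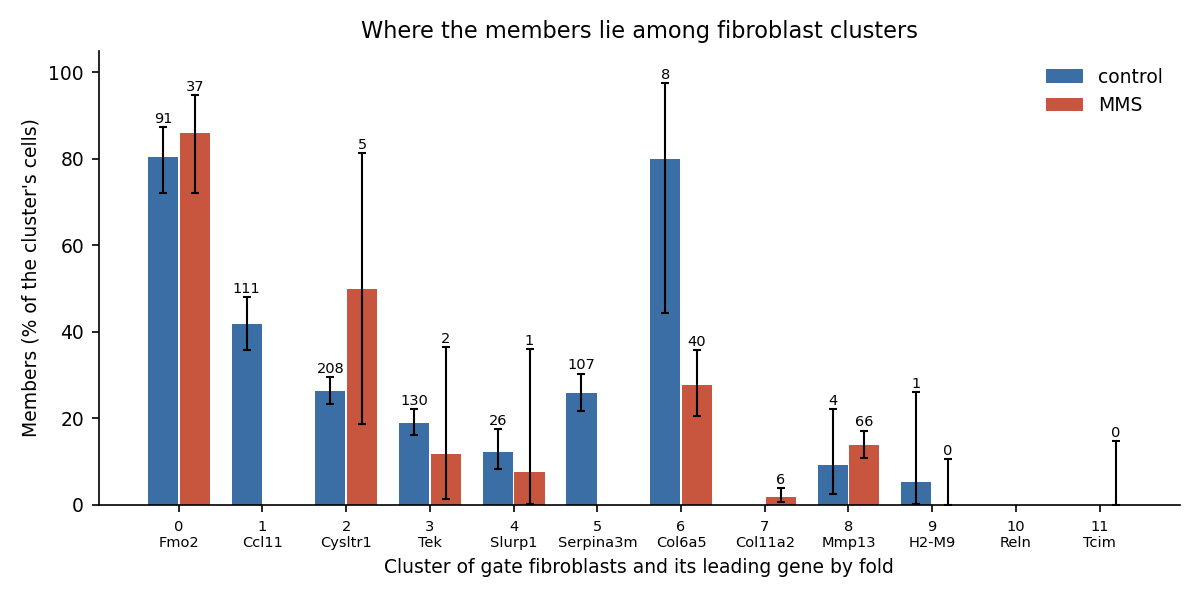
Share of each cluster's cells that were members (vertical axis, %) for the clusters of gate fibroblasts, labelled by number and leading gene (horizontal axis), per library where at least 10 cells were present, with exact 95% binomial intervals and the number of members above each bar. Cluster 0 stood at 80.5% in control and 86% in MMS, and the next in control with over 100 cells was cluster 1 at 41.9%.

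The other label markers were unevenly spread between cluster 0 and the rest. Inside cluster 0, control members had Sfrp2 at 1398 CPM, Inmt at 456 and Eln at 662; members outside it had 132, 107 and 48.7 CPM. In MMS, members of cluster 0 had Sfrp2 at 412, Inmt at 165 and Eln at 2686 CPM, and those outside it 409, 16 and 278. Gdf10, which chose the members, stood at 1213 CPM in control and 1716 CPM in MMS cells of the cluster and at 283 and 225 outside it; a minimum of 2 UMIs is a higher CPM in the shallower cells of the cluster. Sfrp2 in MMS was thus alike inside and outside the cluster. Pdgfra, a receptor gene that marks fibroblasts, was at 462 CPM in control and 350 CPM in MMS members of cluster 0. Of the mural markers there, Abcc9 stood at 80.9 and 218 CPM and Kcnj8 at 29.5 and 69.3, while Rgs5 stood at 3.85 and 3.3 and Higd1b had no UMI. No cell type name is given to the cluster.

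Against the other fibroblasts, 95 of 13604 genes with at least 10 UMIs over members and other fibroblasts of each library (0.698%) were at least 2-fold higher in members of both libraries and 153 (1.12%) at least 2-fold lower. Over all these genes the median log2 ratio was -0.01 in control and -0.03 in MMS. Members were chosen by a gene of the same cells, so these counts describe the cells and are not a test. C2, which encodes the complement protease component of the classical and lectin pathways, stood highest by the rule used: 29.4 CPM in control members against 4.06, a log2 ratio of 2.86 (2.50 to 3.23), and 90.4 against 10.4 CPM in MMS, a log2 ratio of 3.12. Its exons overlap the annotated gene Gm20547 on the same strand, so reads of both may be mixed. Fmo2 stood at 88 against 12.2 CPM in control (2.85) and at 108 against 4.67 in MMS (4.53). Fmo2 was also present in cells chosen by Pecam1 and Cdh5, at 202 and 272 CPM. The summed level of the 10 endothelial markers was 44.2 CPM in control members and 40.2 in other fibroblasts, and 45.1 and 50.8 in MMS. That list includes Pecam1 and Cdh5, which the gate limits in both kinds of cell. The part of endothelial RNA in the Fmo2 level was not tested.

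Regulators and signalling genes were among those named. Gli1, the transcription factor and readout of Hedgehog signalling, stood at 8.66 against 2.3 CPM in control (log2 ratio 1.91) and 10 against 2.2 in MMS (2.19). Gata6 stood at 10.2 against 2.84 CPM (1.85) and 23.5 against 5.17 (2.19). Id4, an inhibitor of helix-loop-helix factors and a BMP target in several tissues, had ratios of 1.39 and 1.74, and the nuclear receptor gene Nr2f2 1.26 and 1.23. Acvr2a, a type II receptor for activins and BMPs, stood at 37.8 against 16.7 CPM in control (1.18) and 36.7 against 15 in MMS (1.29). Agt, the angiotensin precursor, had log2 ratios of 1.91 and 1.81, the tetraspanin gene Tspan11 2.13 and 1.76, and the coagulation initiator F3 1.42 and 3.35. Others were the G protein subunit gene Gng8 (1.41 and 1.85) and the neurotrophin Ntf3 (1.15 and 1.79).

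**Figure D4:**
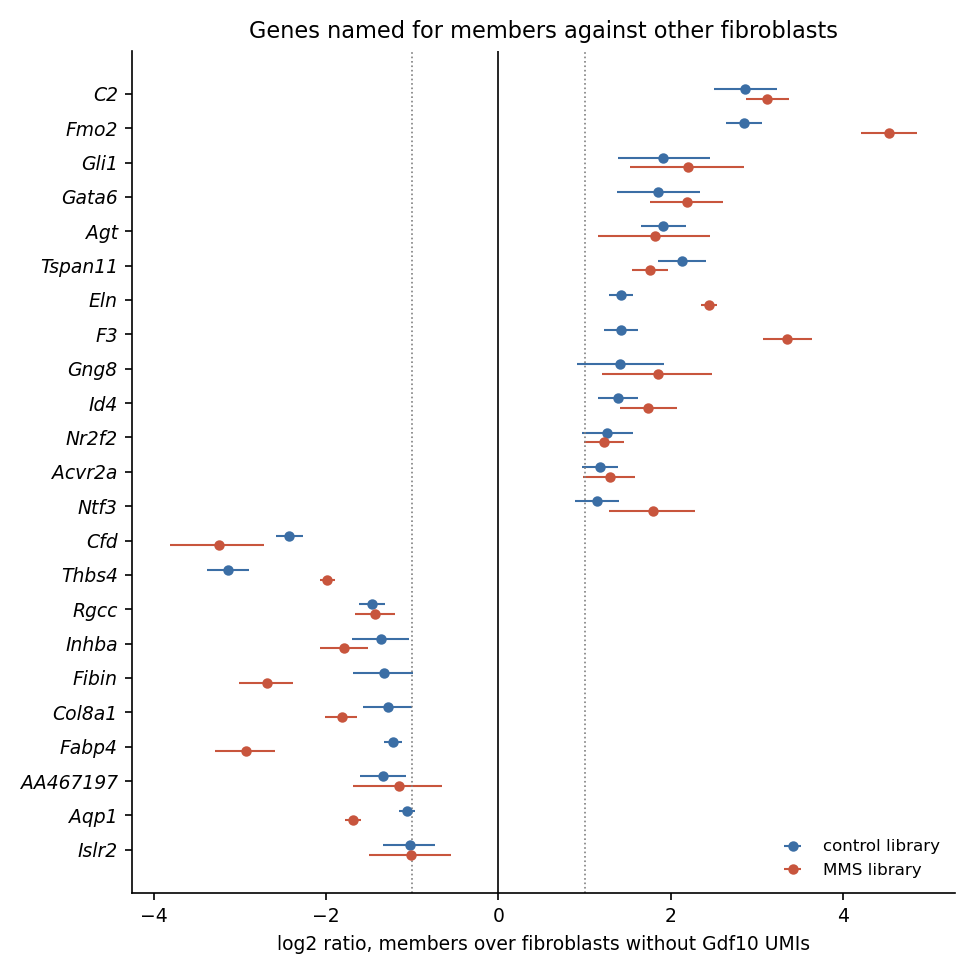
Log2 ratio of members over other fibroblasts (horizontal axis) for genes named by the rule (vertical axis), in each library, with 95% counting intervals; dotted lines mark 2-fold. C2 and Fmo2 stand farthest to the right in control (2.86 and 2.85) and Fmo2 and F3 in MMS (4.53 and 3.35), and Cfd and Thbs4 farthest to the left in control (-2.43 and -3.13).

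Part of this excess came from cluster 0 alone. Outside it, members were set against other fibroblasts of the same clusters, weighted to the members' share of each (582 control members and 112 MMS members). Eln then had a log2 ratio of 0.03 in control and 0.58 in MMS, Sfrp2 -0.07 and 0.79, F3 0.24 and -0.62, and Ntf3 0.64 and -0.36. Inmt kept 0.44 and 1.03. C2 stood at 1.40 and 1.56, Id4 at 1.46 and 1.73, Gli1 at 1.18 and 1.23, Agt at 1.16 and 1.10, Gata6 at 0.98 and 1.47, Nr2f2 at 0.71 and 0.71 and Acvr2a at 0.65 and 0.52. Fmo2 had 1.79 in control and 0.58 in MMS. Against fibroblasts of the same clusters, control members outside cluster 0 thus had little or no excess of Eln and Sfrp2 in summed level. Without the weighting, Eln stood at 48.7 CPM in control members outside cluster 0 and 35.5 in other fibroblasts outside it. Sfrp2 stood at 132 and 122 CPM. Detection differed more: Eln was found in 36.9% of these control members and 20.5% of the other fibroblasts, and Sfrp2 in 18.1% and 8.53%. Median depths were 14517 and 13049 UMIs. C2, Id4, Gli1, Agt and Gata6 were also higher among Gdf10-positive cells of other clusters. Without cluster 0 and without that weighting, 59 genes in place of 95 were at least 2-fold higher in both libraries, and the Nr2f2 ratio in MMS was -0.20.

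Genes lower in members included matrix genes. Thbs4, a thrombospondin of tendon and ligament, stood at 15.3 against 134 CPM in control (log2 ratio -3.13) and 351 against 1390 in MMS (-1.99). Col8a1 stood at 12 against 29.2 CPM and 72.6 against 257 (-1.28 and -1.82), Inhba, the activin A subunit, at 9.16 against 23.6 and 33.3 against 115 (-1.36 and -1.79), and the secreted protein gene Fibin at 8.47 against 21.3 and 25 against 161 (-1.33 and -2.69). The water channel gene Aqp1 had ratios of -1.06 and -1.69, Rgcc -1.47 and -1.43, AA467197 -1.34 and -1.15, and Islr2, which overlaps Islr on the same strand, -1.03 and -1.01. Within clusters other than 0, Thbs4 had -2.98 in control but -0.24 in MMS, Col8a1 -0.97 and -0.12, Inhba -0.62 and -0.15, and Aqp1 -0.10 and -0.81. Cfd and Fabp4, genes of adipocytes, stood at 36.1 against 194 CPM (-2.43) and 87.3 against 204 CPM (-1.22) in control. Yet Cfd was detected in 27.9% of control members and 27.9% of other fibroblasts. When collagens had to reach 1% of UMIs, the ratio in the library where it was nearer to 0 was -0.28 for Cfd and -0.22 for Fabp4. Within clusters other than 0, Cfd had -2.60 in control and -4.66 in MMS, and Fabp4 -0.87 and -2.05. The adipocyte markers, a list of 6, summed to 38.3 CPM in control members and 68.9 in other fibroblasts, and to 6.32 and 63.7 in MMS.

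Genes of the BMP and TGF-beta pathway did not move as a block with Gdf10. Over all 13604 genes, 26.1% were higher and 32.3% lower in members of both libraries. Of 13 ligands measured besides Gdf10, 1 was higher and 7 were lower in members of both libraries, with a median log2 ratio of -0.41 in control and -0.13 in MMS. The one that was higher was Bmp5 (12.9 against 7.34 CPM in control, 11.2 against 5.81 in MMS). Bmp6 stood at 3.05 against 15.1 and 1.72 against 5.9 CPM, and Bmp2 at 22.3 against 39.3 and 6.03 against 9.19. Of 19 receptors and Smads, 5 were higher and 4 lower in both, with medians of 0.01 and -0.02, and Acvr2a was the only one past 2-fold. The type I receptor gene Bmpr1a stood at 75.8 against 78.2 CPM and 97.6 against 84.4, and Smad1, which transmits BMP signals, at 44.4 against 43.1 and 47.9 against 66.3. Of 19 inhibitors and targets, 7 were higher and 8 lower in both. The activin antagonist Fst stood at 311 against 187 CPM in control and 142 against 42.7 in MMS. Within clusters other than 0, Fst had log2 ratios of 0.22 and -0.31. The target Id2 stood at 280 against 199 and 203 against 99.9.

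Of 17 elastic fibre genes other than Eln, 5 were higher and 4 lower in members of both libraries, shares near those over all genes, with medians of -0.23 in control and 0.21 in MMS and none past 2-fold in both. Mfap4, a microfibril-associated protein, stood at 17.1 against 11.7 CPM and 192 against 76.1, Fbln5, which links elastin to cells, at 137 against 91.5 and 136 against 72.3, and Ltbp4, needed for elastic fibre assembly, at 407 against 278 and 371 against 117. Fbn1, the main fibrillin, stood at 654 against 847 CPM in control and 631 against 561 in MMS. Among Wnt genes, 3 of 7 inhibitors were higher and 1 lower in both, beside 26.1% and 32.3% of all genes. Sfrp1 stood at 164 against 111 and 240 against 87.2 CPM. Rspo3, a Wnt agonist, stood at 16.9 against 9.44 and 18.1 against 4.8.

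Several lists had median ratios farther from 0 in MMS than in control. The counts below stand beside 26.1% of all genes higher and 32.3% lower in members of both libraries. Of 15 genes of fibro-adipogenic progenitors, 10 were higher and 0 lower in both libraries, with medians of 0.20 in control and 0.78 in MMS, among them the chemokine Cxcl14 (1217 against 833 and 2514 against 556 CPM) and Osr1 (72.6 against 45.1 and 81.2 against 32.1). Within clusters other than 0, re-weighted as above, Cxcl14 had log2 ratios of 0.000 in control and 0.21 in MMS. The list medians were not re-weighted in this way. Of 12 sublining genes, 7 were higher and 1 lower, with medians of 0.10 and 1.33. Of 15 complement genes, 12 were higher and 2 lower (0.14 and 1.20), with C3 at 3475 against 3389 CPM in control and 2594 against 962 in MMS. Of 19 chemokines and cytokines, 13 were higher and 0 lower (0.15 and 1.10). In the other direction, 13 of 18 genes of activated fibroblasts were lower and 2 higher (-0.30 and -0.85), with Acta2, smooth muscle actin, at 7.29 against 21 and 34.5 against 143 CPM, and Cthrc1 at 46.7 against 70.2 and 493 against 1063. Within clusters other than 0, Cthrc1 had log2 ratios of -0.73 and -0.26. Of 9 lining genes, 6 were lower and 1 higher (-0.48 and -0.77), with Tspan15 at 1.28 against 7.43 and 0.861 against 7.36. The Prg4 limit of the gate bears on this list.

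Genes that mark other synovial fibroblasts were present in members as well. Dpp4 plus Pi16 reached 2 or more UMIs in 27.5% of control members, against 38.7% of other fibroblasts, and in 18.1% against 12.9% in MMS. Ccl19 reached 2 or more UMIs in 65.4% against 53.7% in control and in 60.6% against 26.3% in MMS, and C7, a terminal complement component, in 31.7% against 20% and 8.75% against 0.793%. Members were therefore not set apart from cells that carry these genes. These shares are at full depth, which differs between the cells compared.

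Markers of other cell types were present at low to moderate levels, and which cells had more of them differed by list and library. The 9 mural markers summed to 75.4 CPM in control members and 115 in other fibroblasts, and to 86.1 and 417 in MMS, where Mcam and Higd1b had no UMI in members. The 9 cartilage markers summed to 92.1 against 78.5 CPM in control and 233 against 849 in MMS, and the 7 tendon markers, Comp among them, to 2976 against 2625 and 2990 against 4844. In control the sums of these lists were higher in members but the medians of their genes' log2 ratios were lower, at -0.94 for cartilage and -1.21 for tendon. The 8 bone markers summed to 91.2 against 45.8 CPM in control and 564 against 3828 in MMS, with medians of 1.01 and -0.77 and with Sp7 at 0 in members of both libraries. The 10 macrophage markers had a higher sum in members of both, with 175 against 135 CPM in control and 143 against 64.9 in MMS. Of 9 measured besides Ptprc, 6 were higher and 0 lower in both, beside 26.1% and 32.3% of all genes. When clustered by themselves, 7 control members and 1 MMS member formed a group led by macrophage genes such as C1qc, Lyve1 and Vsig4 (sub-cluster 4); without these 8 cells the median of the macrophage list in MMS was -1.03 in place of 1.03. Schwann cell markers summed to 203 against 132 and 239 against 120 CPM, with Ngfr at 0 in control members. Haemoglobin genes summed to 438 against 90.7 CPM in control and 179 against 498 in MMS. The part of these other cells or of free RNA in the members' values was not tested.

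MMS and control members were then compared. Of 13143 genes with at least 10 UMIs over these cells, 1057 (8.04%) were at least 2-fold higher and 778 (5.92%) at least 2-fold lower in MMS members. The median log2 ratio over all genes was 0.07 in members and 0.12 in other fibroblasts. Tnc, which encodes tenascin-C of injured and loaded connective tissue, stood at 1.77 CPM in control members and 321 in MMS members, a log2 ratio of 7.50 (6.83 to 8.26). Acan, the cartilage proteoglycan, stood at 1.38 and 109 (6.30, 5.54 to 7.19), the thrombospondins Thbs1 at 0.689 and 76.7 (6.80) and Thbs4 at 15.3 and 351 (4.52), Megf6 at 0.394 and 52.5 (7.06), and the fibrillin Fbn2 at 0.492 and 28.4 (5.85). Further genes named as higher were Tnn (5.22), Col11a1 (4.87), the hyaluronan-degrading Cemip (4.90), C1qtnf3 (4.18) and Fmod (4.29), of whose control UMIs 94.1% came from 1 cell, besides the exchange factor gene Plekhg4 (5.28).

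The same genes were also far apart between the libraries in other fibroblasts: Tnc had a log2 ratio of 5.32 there, Acan 7.85, Thbs1 7.35, Thbs4 3.38 and Megf6 9.68. In MMS members most cells had no UMI of them. Tnc was detected in 29.4% of MMS members and Acan in 19.4%, against 68.1% and 44.3% of other MMS fibroblasts. Of 8 sub-clusters of the members, sub-cluster 7, led by Mmp13, Spp1, Acan and Megf6, held 103 of 160 MMS members and 10 of 688 control members. Its MMS cells had Tnc at 379 CPM and Acan at 138. In members of cluster 0, Acan and Megf6 had no UMI in either library, and Tnc had 0 in control and 2 in MMS. Without sub-cluster 7, the ratio of Thbs4 was 2.07, of C1qtnf3 0.84 and of Eln 3.87, and 1589 genes in place of 1057 were at least 2-fold higher, over 57 MMS members. Of these 57, 32 lay in sub-cluster 6 (led by Gabra3, Cd200 and Angpt2), which held 5 control members. The values without sub-cluster 7 thus compare unlike mixes of cells.

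S100a8 and S100a9, the calprotectin genes of neutrophils, were also among the named genes, at 0.295 and 0.492 CPM in control members and 15.5 and 20.7 in MMS members. S100a8 and S100a9 stood at 13.2 and 20.1 CPM in other MMS fibroblasts, at 310 and 354 in MMS cells chosen by Pecam1 and Cdh5, and at 39255 and 37740 in MMS cells with Ptprc. The part of free RNA in this difference was not tested.

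Genes lower in MMS members included Myoc, which encodes the secreted glycoprotein myocilin, at 1473 CPM in control members and 206 in MMS members (log2 ratio -2.84, -2.95 to -2.73). Gsn, the actin-severing protein gelsolin, stood at 28977 and 6204 CPM (-2.22), Igfbp6, an IGF-binding protein, at 2567 and 531 (-2.27), and Cdkn1a, the cell-cycle inhibitor p21, at 538 and 95 (-2.50). Errfi1, a feedback inhibitor of EGF receptor signalling, stood at 499 and 102 CPM (-2.29), Procr, the protein C receptor, at 254 and 45.6 (-2.48), and Cadm3, which overlaps Ackr1 on the same strand, at 196 and 32.7 (-2.58). Lower levels were held by Stmn4 (-4.77), Adcy1 (-4.24), Wnt10b (-3.83), Smpd3 (-3.33), Efhd1 (-2.80) and Scg3 (-2.76). Their UMIs in MMS members were few, in this order 6, 2, 5, 11, 31 and 25. Their ratios are thus imprecise, with an interval of -7.30 to -2.35 for Adcy1. Car3 had -3.16 from 12 MMS UMIs, with 42.5% of its control UMIs in 1 cell. In other fibroblasts the ratios of Myoc, Gsn, Igfbp6 and Cdkn1a were -3.89, -3.42, -2.15 and -1.69, and that of Car3 was 0.04. Without sub-cluster 7, and so with unlike mixes of cells, members had -1.36 for Gsn, -1.42 for Igfbp6, -1.53 for Cdkn1a and -2.83 for Stmn4.

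**Figure D5:**
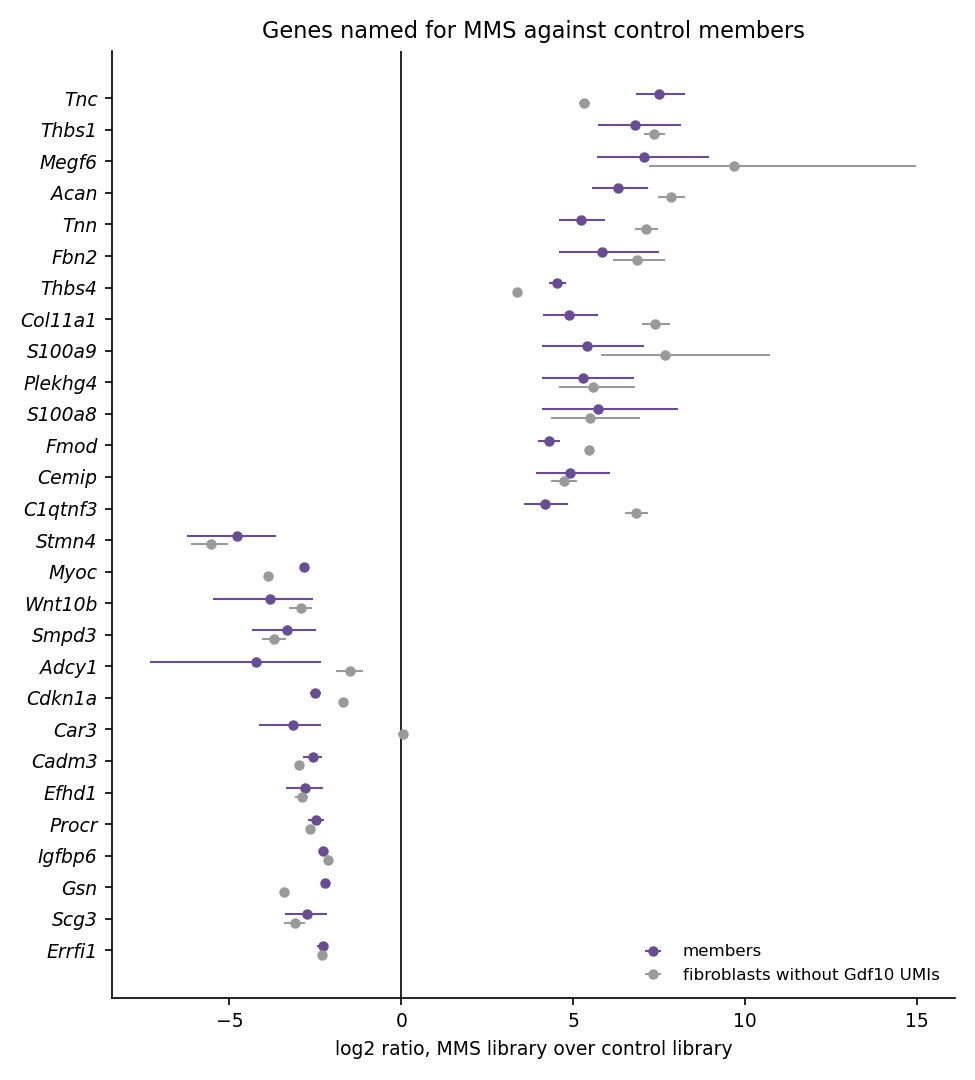
Log2 ratio of the MMS over the control library (horizontal axis) for the 28 genes named by the rule (vertical axis), in members and in other fibroblasts, with 95% counting intervals. The genes lie on the same side of 0 in both kinds of cell, as with Tnc (7.50 and 5.32) and Myoc (-2.84 and -3.89), except Car3 (-3.16 and 0.04).

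The label markers behaved differently from each other. Eln was at 95.7 CPM in control members and 488 in MMS members (log2 ratio 2.35, 2.24 to 2.47; 1.33 in other fibroblasts). Sfrp2 stood at 229 and 409 CPM (0.84, against -0.63 in other fibroblasts), and 14.1% of its UMIs in MMS members came from 1 cell. Inmt stood at 134 and 29 CPM (-2.20, against -5.25). Within cluster 0, where cells of both libraries lay together, Eln was at 662 CPM in control cells and 2686 in MMS cells (2.02, 1.86 to 2.18), Sfrp2 at 1398 and 412 (-1.76, -2.04 to -1.49) and Inmt at 456 and 165 (-1.47, -1.92 to -1.04). The direction of Sfrp2 thus depended on which members were summed.

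Other genes of cluster 0 differed between the libraries too. C2 was at 256 CPM in control cells and 680 in MMS cells (1.41), Fmo2 at 637 and 1079 (0.76), F3 at 188 and 805 (2.10) and Nr2f2 at 114 and 482 (2.08). The immune regulator Cd200 stood at 42.4 and 501 CPM (3.56) and Smoc2, a matrix calcium-binding protein, at 74.5 and 610 (3.03). Gsn stood at 38715 and 13339 CPM (-1.54), and Agt at 159 and 9.9 from 3 MMS UMIs (-4.01, -6.31 to -2.43). The member sub-clusters split these cells by library. Sub-cluster 0, with Agt, Fmo2 and C2 leading, held 87 control and 5 MMS cells, and sub-cluster 6, with Gabra3, Cd200 and Angpt2 leading, held 5 and 32. Their Gdf10 levels were 1251 CPM in control cells of the former and 1670 in MMS cells of the latter. As each group had 1 library, a difference of condition and one of library cannot be told apart here.

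Lists of activation, protease and collagen genes were mostly higher in MMS than in control members. Over all genes compared, 56.8% were higher and 8.04% at least 2-fold higher. All 18 genes of activated fibroblasts were higher in MMS members, 14 of them at least 2-fold, with a median log2 ratio of 2.37, beside 2.87 in other fibroblasts. Postn, periostin, stood at 349 and 1728 CPM, Cthrc1 at 46.7 and 493, and Fn1, fibronectin, at 4134 and 4245. Of 16 matrix proteases and inhibitors, 12 were higher and 8 at least 2-fold (median 0.83, beside 1.05), with Timp1 at 134 and 725 CPM and Mmp14 at 139 and 530. Of 11 fibrillar and associated collagens, 10 were higher (0.79, beside 1.42), with Col12a1 at 12.7 and 160. Of 17 elastic fibre genes other than Eln, 9 were higher, a share near that over all genes, and 8 at least 2-fold (0.88, beside 0.20). The crosslinking enzyme Lox stood at 54.1 and 461 CPM, Mfap4 at 17.1 and 192 and Mfap2 at 100 and 358, whereas Emilin2 stood at 101 and 44.2. Elastic fibre genes thus had the larger median in members, and activation and collagen genes the larger in other fibroblasts; neither difference was tested.

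Several lists were mostly lower in MMS members, and their medians lay closer to 0 in members than in other fibroblasts. Over all genes compared, 5681 of 13143 were lower and 5.92% at least 2-fold lower. Of 14 adventitial genes, 13 were lower and 11 at least 2-fold (median -1.43, beside -1.77), with Clec3b at 2785 and 876 CPM, Cd34 at 732 and 295, and Dpp4 at 51.9 and 9.47. Immediate early genes were lower for 16 of 18 (-0.86, beside -1.30), with Fos at 4592 and 2554 and Atf3 at 793 and 255. Interferon response genes were lower for 12 of 15 (-0.58, beside -1.54). Complement genes were lower for 9 of 15 (-0.26, beside -1.39), with Cfb at 568 and 575 CPM. Basement membrane genes were lower for 11 of 14 (-0.54, beside -0.89). Chemokines and cytokines differed in the sign of the median: 11 of 20 were higher in MMS members (0.21, beside -1.04 in other fibroblasts), with Ccl2 at 33 and 102 CPM, Ccl8 at 44.6 and 123 and Cxcl14 at 1217 and 2514, while Cxcl1 stood at 538 and 324. Housekeeping genes had a median of 0.02 (8 of 14 higher), and over all genes 56.8% were higher.

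In the BMP and TGF-beta lists, 7 of 13 ligands were higher and 6 lower in MMS members (median 0.11), beside 56.8% of all genes higher. Tgfb3 was at 60.3 CPM in control members and 126 in MMS members, Inhba at 9.16 and 33.3, Bmp4 at 28.5 and 30.7 and Bmp2 at 22.3 and 6.03. Of 19 receptors and Smads, 9 were higher, with a median of -0.02 and 1 past 2-fold; Acvr2a stood at 37.8 and 36.7 CPM. The inhibitor Chrdl1 stood at 23 and 55.7 CPM, Fst at 311 and 142, and the BMP targets Id1 at 70.5 and 35.9 and Id3 at 1031 and 697. In other MMS and control fibroblasts Id1 stood at 43.3 and 43.7 CPM, and Id3 at 827 and 606. Wnt ligands and R-spondins were higher for 5 of 11 and lower for 6 (median -0.13, beside -0.81). Of them 5 were at least 2-fold lower, beside 5.92% of all genes.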

How the data were processed

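Single-cell RNA-seq counts of mouse synovium were used, from 1 control and 1 MMS library. The deposited matrices hold UMI counts per gene and barcode, not normalized; per the file headers they were written by Cell Ranger 5.0.0. Version 2.0.0 of that software and the build mm10 stand in the submitters' processing notes, and the options are not given in sources used here. Per the labels' protocols, tissue was digested enzymatically and 3' libraries were made, so levels of different genes were not compared.

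Barcodes were filtered, and cells chosen, as given in the opening of the results. UMIs were summed over the cells of a group in a library and divided by their total (CPM). A gene was compared when at least 10 UMIs were counted over both sides, and a ratio of 2-fold or more was counted as higher or lower; a sum of 0 was set to a floor of 3 UMIs. With 1 library per group no test was run. Intervals are 95% counting intervals (exact binomial for shares, and for the share of 2 counts behind a ratio); the scripts were tested on simulated sums. Total counts per library and depth per cell are given in the results. Genes of the definition, of mitochondria, ribosomal proteins and haemoglobin, sex-linked genes and unnamed gene models were not eligible to be named. Named genes had at least 30 UMIs and were detected in at least 10% of cells on the higher side, and were ranked by the ratio in the library where it was nearer to 0 (14 higher, 10 lower), or by the interval bound nearer to 0 between libraries (14 in each direction); examples from lists were picked once their levels had been seen. The members, the 40 gene lists and the rules were chosen with earlier results of these data known. Gate fibroblasts and members were clustered without the genes of the definition (2000 variable genes, 20 principal components, 15 neighbours, Leiden resolution 0.6 and 0.4). Doublets were kept, with their removal (expected rate 0.06) as an alternative. Other alternatives changed the scaling, the limits on Gdf10, Prg4, Sult1e1, collagen, UMIs and mitochondrial share, the minimum per gene, the weight of cells and the thinned depth; those that leave out clusters or re-weight the other fibroblasts were chosen after seeing the data. Some genes that met these rules are not reported here. Coordinates are from GENCODE M21, which held 32158 of 32285 gene identifiers. Python 3.11.15, numpy 2.4.6, scipy 1.17.1, pandas 2.3.3, scanpy 1.11.5, anndata 0.12.19 and igraph 0.11.9 were used.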

Additional observations from a re-analysis of the deposited data

Results flagged for a closer look

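Among the genes named by the rule and the label markers, 3 had the MMS and control libraries in opposite order in Gdf10 fibroblasts and in the other fibroblasts, with counting intervals clear of 0 in each. Genes outside that set did so too, such as Cxcl14 (1.05 in members and -0.58 in other fibroblasts) and Smoc2 (0.39 and -0.69). With 1 library per group the difference between these ratios was not tested. Sfrp2 had a log2 ratio of MMS over control of 0.836 in members and -0.626 in other fibroblasts, and of -1.76 in members of cluster 0. Fmo2 had 0.291 in members and -1.39 in other fibroblasts. F3 had 0.643 in members and -1.286 in other fibroblasts. Members outside cluster 0 had ratios of 1.63 for Sfrp2, -1.49 for Fmo2 and -2.18 for F3, and cluster 0 held 13.2% of control and 23.1% of MMS members.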

How the results depend on the processing

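The lower share of members among MMS gate fibroblasts held, with a changed size, under every alternative except 10 or more Gdf10 UMIs. At that limit the share was 2.8% in control and 2.84% in MMS. It was 37.6% in control and 21.1% in MMS (-16.5 points) with 1 or more Gdf10 UMIs, 11.6% and 7.99% (-3.6) with 4 or more, 28% in control (-13.8) with no Sult1e1 limit, 10.6% and 5.41% (-5.24) thinned to 5000 UMIs, and 5.82% and 2.92% (-2.9) thinned to 2000, beside 24.1% and 14.2% (-9.9). The 95 genes higher in members of both libraries became 144 with 4 or more Gdf10 UMIs, 36 with 50 UMIs per gene, 59 without cluster 0 and 150 without sub-cluster 7. The 153 lower became 254 with cells weighted equally and 71 with 50 UMIs per gene. With 50 UMIs per gene, fewer genes were compared, and 549 in place of 1057 were higher and 388 in place of 778 lower in MMS members; 1589 were higher without sub-cluster 7. List medians changed sign for haemoglobin at 1 or more Gdf10 UMIs (1.08 against other MMS fibroblasts, 1.86 between libraries), for adipocyte markers at 1% collagen (0.43 in control, 0.13 in MMS), and for macrophage markers in MMS with doublets removed (-0.51), cells weighted equally (-0.22), 5000 to 30000 UMIs (-1.50) and no sub-cluster 4 (-1.03). At 5000 to 30000 UMIs, adipocyte (0.23) and bone markers (-0.15) in control and cartilage markers between libraries (-0.25) also did; without sub-cluster 7, adipocyte markers in MMS (0.93) and cartilage markers (-0.26). Of the genes, Nr2f2 turned to -0.20 without cluster 0, and Ntf3 to -0.36 against re-weighted fibroblasts. The causes were not tested. Otherwise 870 values of named genes lay inside the counting interval given by the limits as set and 175 outside it, and 1940 list medians lay within 0.5 of theirs and 117 did not. Low counts limited Gdf10, since most members had under 5 UMIs of it. No paired analysis was possible because each group had 1 library and the labels carry no replicate numbers; for the same reason no library could be left out.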

Other observations

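Retinoid and small-molecule genes were also measured in Gdf10 fibroblasts. Of 19 such genes, 11 were higher and 2 lower than in other fibroblasts of both libraries, with median log2 ratios of 0.23 in control and 0.59 in MMS. Fmo1 stood at 72.5 against 35.6 CPM in control and 56 against 18.7 in MMS, and Aldh1a2, which makes retinoic acid, at 28.4 against 16.6 and 16.4 against 12.9. Cyp26b1, which degrades retinoic acid, stood at 117 against 55.7 CPM in control and 81.2 against 74 in MMS. Crabp2, a retinoic acid binding protein, went the other way, at 11.4 against 35.8 and 27 against 136 CPM. Of 31 transcription factors, 12 were higher and 10 lower in both libraries, beside 26.1% and 32.3% of all genes. Meox1 stood at 19.4 against 8.95 and 6.03 against 1.97 CPM, Meox2 at 91.9 against 52.1 and 111 against 58, Foxd1 at 2.46 against 12.1 and 4.59 against 13, and the tendon factor Scx at 4.04 against 12 and 29.3 against 139. Basement membrane genes were higher for 9 of 13 and lower for 3. The collagen gene Col4a1 stood at 730 against 499 and 498 against 372 CPM, and Col4a5 at 205 against 146 and 82.1 against 27.8. Within clusters other than 0, Col4a1 had log2 ratios of 0.15 in control and -0.17 in MMS.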
